A study of Arabidopsis thaliana with 2 samples.

Results

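PR1, PR3 and PR5 are 3 genes for pathogenesis-related proteins of Arabidopsis. They were found by their gene codes (AT2G14610, AT3G12500 and AT1G75040) in the list of changed genes that accompanies the study, and each is read by 1 probe set of the ATH1 array. They are 3 of 13504 genes that could be named for the 22810 probe sets of the array. That list was drawn up by the study from csb3 and Col-0 arrays, so the direction of the 3 genes was known from the way they were named and is described here without a test. The name of each probe set ends in _at with no further letter, the form given to probe sets designed to read a single gene.

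The arrays compare csb3 mutant plants with wild-type plants of the same accession, Col-0, to find genes expressed differently in the mutant without any infection. The csb3 mutation lies in HDS, which acts in the isoprenoid pathway of plastids. The mutant was found in a screen for plants that switch on a tomato subtilase promoter fused to GUS, so it is 1 mutant line selected for the activity of that reporter. Both genotypes were grown for 5 weeks at 23 °C with 10 h of light a day, and RNA came from whole plants. The design text mentions 5 plants and does not say how they were divided or pooled. Each genotype is represented by 1 array, which leaves each difference without replicates and without a p-value. HDS itself has no named probe set here.

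Pathogenesis-related (PR) proteins are small, mostly secreted proteins that plants accumulate when pathogens attack. PR1 belongs to the CAP family of cysteine-rich secreted proteins and is the usual marker of salicylic acid (SA) signalling, in which SA acts through the coactivator NPR1 and TGA transcription factors. PR3 is a basic chitinase that cuts the chitin of fungal cell walls and is known to respond to ethylene and jasmonate. PR5 is a thaumatin-like protein, also used as an SA marker. PR2, a beta-1,3-glucanase, and PR4, a hevein-like protein, complete the common set of 5, but neither is paired with a probe set in the tables used here.

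The values are MAS5 signals, intensities on a linear scale, which the authors scaled so that the mean of each array without its lowest and highest 2% was 250. The median signal was 88.3 in csb3 and 80.3 in Col-0, and 13418 probe sets in csb3 and 13529 in Col-0 reached 50. Signals below 50 were set to 50 before the csb3 signal was divided by the Col-0 signal. Where 1 of the signals was below 50, the fold is only a bound and is given as "at least". The median log2 ratio was 0.08 over the 12540 probe sets that reached 50 on both arrays. The only measure of error in the pair of arrays is the disagreement between probe sets of 1 nuclear gene, which gave an SD of 0.65 for a log2 ratio (45 genes). This is a spread within the array pair and holds no variation between plants. The 2 arrays also differed in control probe sets. The 25S rRNA control had 17.3 in csb3 and 384.4 in Col-0, and the U12639 control had 112.7 in csb3 and 20.3 in Col-0. The 17 bacterial and phage spike-in controls with 50 or more on both arrays were all lower in csb3 (median log2 ratio of -0.998). The 3′ signal divided by the 5′ signal, which reflects RNA quality, was 4.91 in csb3 and 2.06 in Col-0 for actin, 1.40 in csb3 and 1.29 in Col-0 for GAPDH, and 1.98 in csb3 and 2.66 in Col-0 for ubiquitin. These ratios use 1 pair of probe sets per gene. A second actin pair differed less between the arrays. Its 3′ signal was 4012.5 in csb3 and 3500.8 in Col-0, and its 5′ signal 1804.1 in csb3 and 2008.5 in Col-0. A second GAPDH pair had 5045.7 (3′) and 3940.5 (5′) in csb3, and 3842.3 (3′) and 4409.6 (5′) in Col-0. Scaling on the spike-in controls is among the 8 other settings given below. The part of these control differences in the results was not otherwise tested.

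All 3 genes had higher signals in csb3. The PR1 signal was 3164 in csb3 and 237.9 in Col-0, a 13.3-fold difference. Its transcript was thus detected well above 50 in uninfected wild-type plants too. The PR5 signal was 1359 in csb3 and 432.3 in Col-0, a 3.14-fold difference. The lower of its signals, that of Col-0, was far above the floor of 50, so this fold does not depend on it. The PR3 signal was 180.0 in csb3 and 14.4 in Col-0, so PR3 was at least 3.60-fold higher in csb3. PR3 thus lay below the floor of 50 in Col-0, and the size of its difference is not fixed by these arrays. In RNA from whole plants, more transcript per cell and more cells that make it cannot be told apart.

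**Figure D1:**
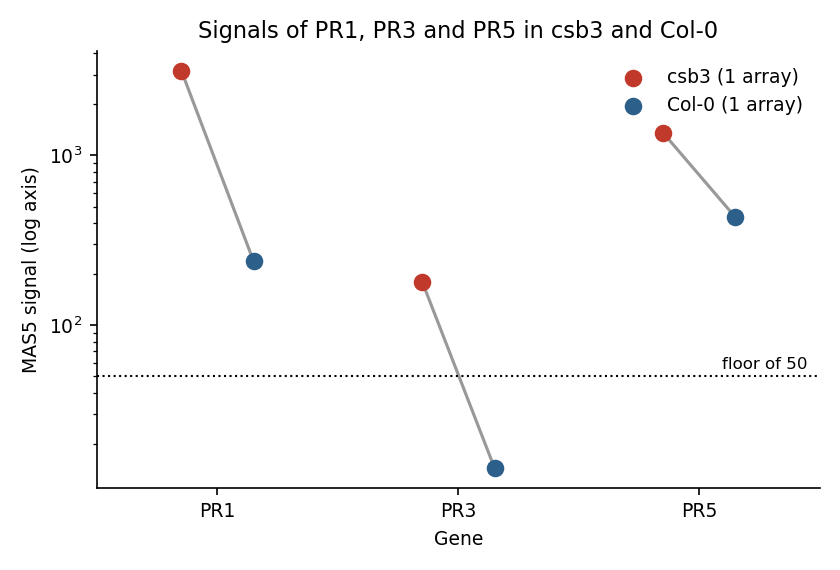
MAS5 signals (log axis) of PR1, PR3 and PR5 in csb3 (red, left point of each pair) and Col-0 (blue, right point), 1 array per genotype, with the floor of 50 as a dotted line. Each csb3 point lies above its Col-0 point, and the PR3 signal of 14.4 in Col-0 lies below the floor.

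All 3 genes were past 3-fold, a size that 367 of the 22810 probe sets reached upwards in csb3 (1.61%). At 2-fold the share was 4.56% (1041 probe sets), and at 4-fold, which only PR1 among the 3 reached, it was 0.886% (202 probe sets). Since the list used to name the 3 genes holds only changed genes, nothing is read from their place against these shares. The log2 ratio of PR1, 3.73, took place 13 among all probe sets and place 5 among those with 50 or more on both arrays. The log2 ratio of PR5, 1.65, took place 325 among all and 223 among those measured on both arrays. PR3 took place 242 by its lower bound of 1.85. For comparison at like signal, a 3-fold rise was reached by 1.92% of the 3277 probe sets with a geometric mean signal of 400 to 1600, the range that holds PR1 and PR5, and by 2.81% of the 6307 probe sets with 100 to 400. Among the 878 probe sets that, like PR3, were below 50 in Col-0 and at 50 or more in csb3, 113 (12.9%) had a lower bound of 3-fold or more.

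**Figure D2:**
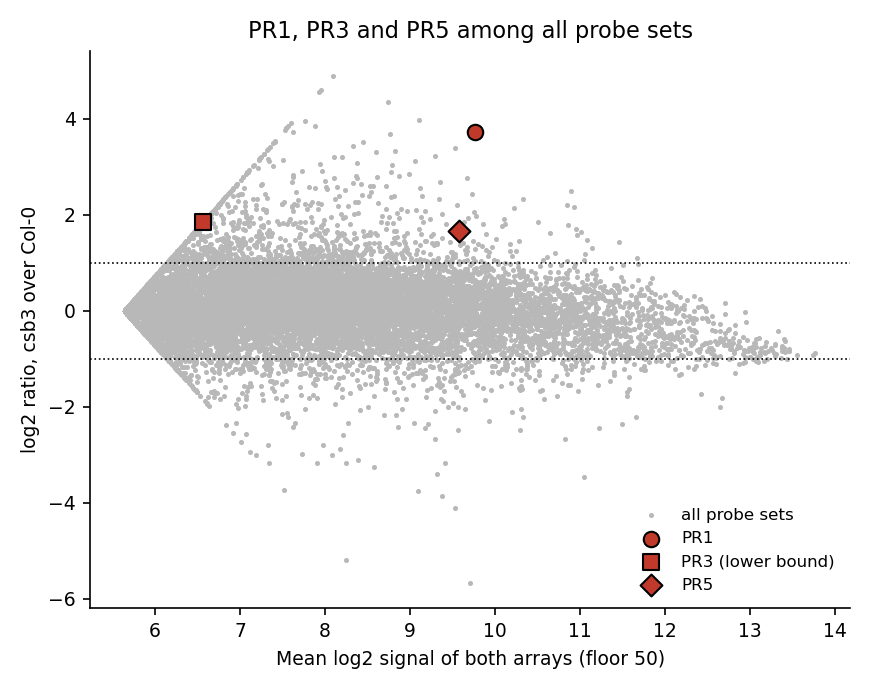
Log2 ratio of csb3 over Col-0 against the mean log2 signal of both arrays (signals below 50 set to 50) for all 22810 probe sets in grey, with PR1, PR3 and PR5 marked and dotted lines at 2-fold. PR1 (3.73) stands near the top, at place 5 of those measured on both arrays, PR5 (1.65) lies nearer to the body of the data, and PR3 lies on the left edge, where the Col-0 signal was at the floor.

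Between the genes with a measured ratio, the log2 ratio of PR1 was 2.08 above that of PR5. With 1 array per genotype this difference has no error between plants and was not tested. No such value can be given for PR3, whose ratio is a bound. A common scaling of the arrays cancels in the difference between PR1 and PR5, and floors up to 100 leave their signals unchanged. The difference could thus move only with 32 added to each signal (1.98) or with scaling that depends on the signal (2.11). Under the 8 other settings tried it ranged between these values.

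PR1 is the founding member of its family, and most of its relatives were not detectable at 50 in these plants. Of 22 listed CAP genes, 20 have a named probe set, 19 of them through the array annotation and PR1 through the list of changed genes alone. On both arrays 16 of the 20 were below 50, among them PR-1-LIKE (AT2G19990), with 9.9 in csb3 and 1.5 in Col-0. Of all 22810 probe sets, 14407 reached 50 on at least 1 array. Of the 19 relatives, 0 were 2-fold or more higher in csb3, a size that 3.58% of all annotated probe sets reached. Lower in csb3 were 2 of the 19, against 2.65% of all annotated probe sets. AT5G66590 had 168.6 in csb3 and 483.2 in Col-0, a 2.87-fold lower signal in csb3. AT4G25780 had 25.3 in csb3 and 141.9 in Col-0, at least 2.84-fold lower. AT4G07820, with 29.2 in csb3 and 56.5 in Col-0, did not reach 2-fold. PRB1, the basic PR1 relative next to PR1 in the RefSeq gene order, has no named probe set here.

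PR3 stood among chitinases that were also higher in csb3. Of 23 listed chitinase genes, 16 have a named probe set, and 5 of them, PR3 included, were 2-fold or more higher in csb3 and 0 lower. Among the 14 that the annotation names, 3 were higher, against 3.58% of all annotated probe sets. CHI (AT2G43570), an endochitinase, had 1918 in csb3 and 204.6 in Col-0, a 9.37-fold difference. It cannot be ranked against PR3, whose size is not known. EP3 (AT3G54420), a class IV chitinase named only through the list of changed genes, had 376.2 in csb3 and 105.8 in Col-0, a 3.56-fold difference. AT4G01700 had 207.0 in csb3 and 81.4 in Col-0, a 2.54-fold difference. Like PR3, ChiC (AT4G19810), a class V chitinase, was below 50 in Col-0. It had 149.4 in csb3 and 34.2 in Col-0, at least 2.99-fold higher. A further 4 were measured without reaching 2-fold, and the closest was AT3G47540 with 473.5 in csb3 and 245.5 in Col-0 (1.93-fold). The other 7 of the 16 were below 50 on both arrays, where 14407 of all 22810 probe sets reached 50 on at least 1.

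PR5 was likewise 1 of several thaumatin-like genes that were higher in csb3. Of 24 listed genes, 21 have a named probe set, and 5 of them, PR5 included, were 2-fold or more higher in csb3 and 0 lower. Among the 20 that the annotation names, 4 were higher, against 3.58% of all annotated probe sets. OSM34 (AT4G11650), an osmotin, had 534.2 in csb3 and 2.0 in Col-0, at least 10.7-fold higher. AT2G28790 had 619.3 in csb3 and 124.2 in Col-0, a 4.99-fold difference. Both lay further from Col-0 than PR5 did, an order that was not tested. The log2 ratio of AT2G28790, 2.32, lay within 0.92 of that of PR5, 1.65. That is the SD of a difference of 2 log2 ratios within the array pair. AT5G24620 had 159.2 in csb3 and 57.9 in Col-0, a 2.75-fold difference. AT4G18250 had 111.2 in csb3 and 23.3 in Col-0, at least 2.22-fold higher. A further 7 were measured without reaching 2-fold. Among these, AT1G75800 was a bright relative of PR5 that differed little, with 468.5 in csb3 and 569.1 in Col-0. The other 9 of the 21 were below 50 on both arrays, where 14407 of all 22810 probe sets reached 50 on at least 1. They include AT1G75050, which follows PR5 in the RefSeq gene order and had 7.0 in csb3 and 8.1 in Col-0.

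PR2 itself has no named probe set here, but 4 of 7 listed beta-1,3-glucanases do, and 3 of these were 2-fold or more higher in csb3, against 4.56% of all probe sets. Among the 3 that the annotation names, 2 were higher, against 3.58% of all annotated probe sets. BG3 (AT3G57240), a relative of PR2 named only through the list of changed genes, had 234.0 in csb3 and 40.0 in Col-0, at least 4.68-fold higher. AT3G04010 had 142.2 in csb3 and 9.4 in Col-0, at least 2.84-fold higher. AT4G16260 had 239.4 in csb3 and 110.4 in Col-0, a 2.17-fold difference. The remaining gene, AT5G20390, was below 50 on both arrays.

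The median log2 ratio over all named members, with genes below 50 on both arrays at 0, was 0 for the CAP and thaumatin-like genes, 0.34 for the chitinases and 1.31 for the glucanases, against 0 over all probe sets. A family with many undetected members has its median at the floor, so the counts above say more than the medians.

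**Figure D3:**
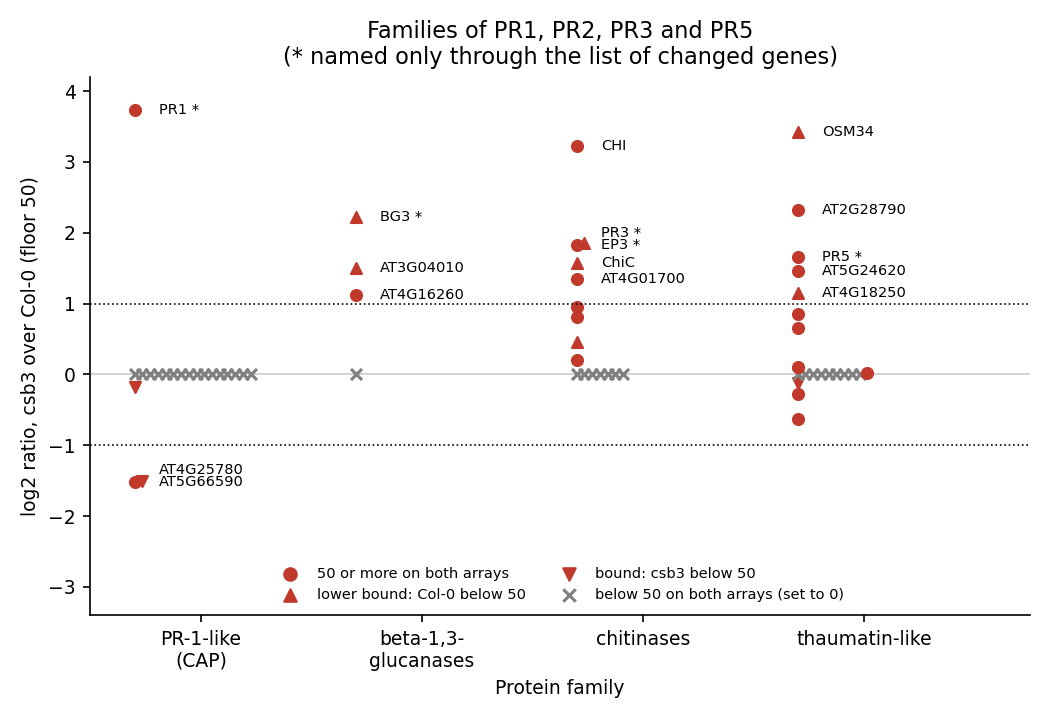
Log2 ratio of csb3 over Col-0 for each named gene of the PR-1-like (CAP), beta-1,3-glucanase, chitinase and thaumatin-like families, with dotted lines at 2-fold and names beside genes past them. Circles were at 50 or more on both arrays, triangles are bounds with 1 signal below 50, and crosses were below 50 on both. Above the upper line lie 0 of the 19 named relatives of PR1, 4 of the 15 of PR3 and 4 of the 20 of PR5. Of these relatives, 16, 7 and 9 in that order were below 50 on both arrays and so could not pass a line. Of all annotated probe sets, 3.58% were 2-fold or more higher in csb3. EP3, a relative of PR3, is named only through the list of changed genes, which fixes its direction.

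Genes that act before PR1 in SA signalling were set beside it. Of 5 listed SA synthesis genes, 3 have a named probe set, and each of the 3 was 2-fold or more higher in csb3, against 4.56% of all probe sets. These were named only through the list of changed genes, which fixes their direction. PBS3, which joins glutamate to the SA precursor isochorismate, had 895.1 in csb3 and 62.4 in Col-0. This is a 14.3-fold difference, beside 13.3-fold for PR1. ICS1, the isochorismate synthase, had 808.8 in csb3 and 128.3 in Col-0, a 6.30-fold difference. EDS5, a transporter needed for SA accumulation, had 524.2 in csb3 and 110.7 in Col-0, a 4.74-fold difference. Both thus lay below PR1 in fold and above PR5, an order that was not tested. Within the array pair the SD of a difference of 2 log2 ratios was 0.92. EDS5, with a log2 ratio of 2.24, lay within that of PR5, with 1.65. Of 20 listed regulators of PR1 transcription, 5 have a named probe set, and the list of changed genes alone names the 4 of them that were 2-fold or more higher, against 4.56% of all probe sets. NIMIN1, a repressor that binds NPR1 and limits PR1 expression, had 482.3 in csb3 and 21.3 in Col-0, at least 9.65-fold higher. WRKY38, a negative regulator of SA-dependent defence, had 372.3 in csb3 and 19.5 in Col-0, at least 7.45-fold higher. WRKY54 had 1038 in csb3 and 171.4 in Col-0, a 6.05-fold difference. The signals of WRKY18 were 486.6 in csb3 and 132 in Col-0, a 3.69-fold difference. The fifth, the NPR1 homologue AT4G26120, is named by the annotation and had 108.9 in csb3 and 57.3 in Col-0, short of 2-fold. NPR1 and the TGA factors have no named probe set here.

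Secreted PR proteins pass through the endoplasmic reticulum (ER) on their way out of the cell, and genes of that route were listed as well. Of 14 listed, 6 have a named probe set, 3 were 2-fold or more higher in csb3, against 4.56% of all probe sets, and 0 lower. Among the 4 that the annotation names, 1 was higher, against 3.58% of all annotated probe sets. With scaling on the spike-in controls all 6 were higher, against 34.4% of all probe sets. BIP3, an ER chaperone, had 697.9 in csb3 and 12.7 in Col-0, at least 14.0-fold higher. PDIL1-2, a protein disulfide isomerase, had 1244 in csb3 and 177.4 in Col-0, a 7.01-fold difference. Both are named only through the list of changed genes. AT1G29310, a subunit of the protein-conducting channel named by the annotation, had 650.5 in csb3 and 244.4 in Col-0, a 2.66-fold difference. The 3 others, SPP, CRT1b and AT2G34250, had log2 ratios of 0.95, 0.88 and 0.64.

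PR3 is often grouped with jasmonate and ethylene markers, but 2 of the named markers of that group were lower in csb3, where PR3 was higher. PDF1.2, a plant defensin, had 106.2 in csb3 and 782.0 in Col-0, and was 7.36-fold lower in csb3. PDF1.2b, whose probe set can also read other PDF1.2 copies, had 394.8 in csb3 and 1626 in Col-0, and was 4.12-fold lower. ORA59, a transcription factor that activates PDF1.2, had 66.3 in csb3 and 4.5 in Col-0, at least 1.33-fold higher. LCR67, a further defensin, was below 50 on both arrays. In all, 4 of 9 listed genes have a named probe set, 2 were 2-fold or more lower, both named by the annotation, against 2.65% of all annotated probe sets, and 0 were 2-fold or more higher. The count of higher genes was 1 of the 4 with a floor of 20, with 32 added to each signal or with scaling on the spike-in controls. It was 2 with no floor. Of all probe sets, 6.56% were 2-fold or more higher with a floor of 20 and 4.06% with 32 added. The share was 34.4% with scaling on the spike-in controls and 11.8% with no floor.

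**Figure D4:**
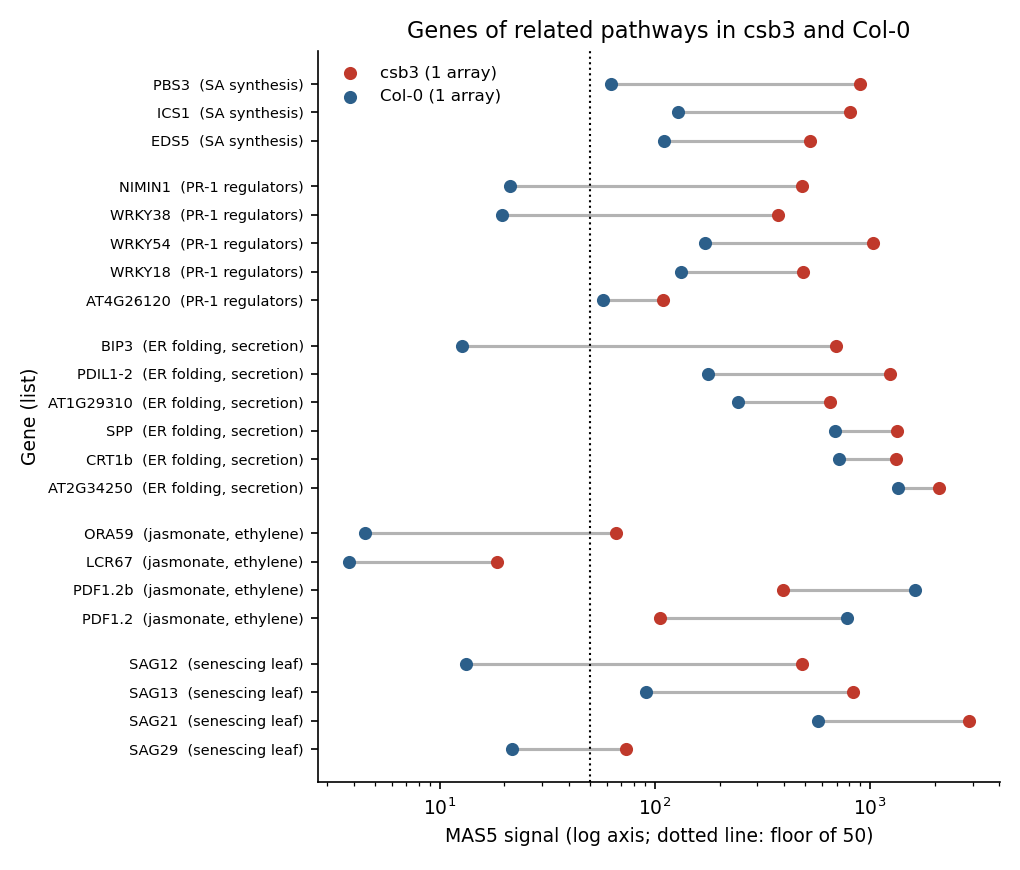
MAS5 signals (log axis) in csb3 (red) and Col-0 (blue), 1 array per genotype, of the named genes listed for SA synthesis, regulation of PR1, ER folding and secretion, jasmonate and ethylene responses, and senescing leaves, with the floor of 50 as a dotted line. PDF1.2 and PDF1.2b are the 2 genes with the red point left of the blue one.

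Some of the listed markers of senescing leaf and of root also differed by 2-fold or more between the arrays. All 4 listed markers of senescing leaves have a named probe set, and their summed signal was 4274 in csb3 and 700.3 in Col-0. SAG21 made up most of both sums, with 2880 in csb3 and 574.6 in Col-0. SAG29, the only 1 named by the annotation, had 73.7 in csb3 and 21.6 in Col-0 and did not reach 2-fold. SAG12, a protease of late senescence, had 483.9 in csb3 and 13.3 in Col-0, and 3 of the 4, all named only through the list of changed genes, were 2-fold or more higher in csb3, against 4.56% of all probe sets. Of 8 root markers 5 have a named probe set, and their summed signal was 1520 in csb3 and 89.8 in Col-0. PYK10, a beta-glucosidase, made up most of the csb3 sum, with 1220 in csb3 and 27.8 in Col-0. NAI2 had 241.1 in csb3 and 26.5 in Col-0. These were the 2 of the 5 that were 2-fold or more higher in csb3, against 3.58% of all annotated probe sets. All 5 are named by the annotation. The other 3, the root hair expansins EXPA7 and EXPA18 and the peroxidase AT5G17820, were below 50 on both arrays. No root marker with a named probe set reached 50 in Col-0, although the sample is labelled as whole plant. Of 9 leaf markers only RCA, the activase of Rubisco, has a named probe set, with 7432 in csb3 and 12691 in Col-0. None of the listed flower and seed markers has one. The part of leaf age or organ content in the differences of PR1, PR3 and PR5 was not tested.

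The genes most like each of the 3 were taken as those with the nearest log2 ratio, a likeness that rests on 2 arrays only. Nearest to PR1 were AT4G29030 (13.2-fold higher in csb3), the trypsin inhibitor KTI1 (12.9-fold) and PBS3 (14.3-fold), among 6692 named nuclear probe sets measured at 50 or more in both genotypes. They differed from PR1 by 0.02, 0.04 and 0.11 on the log2 scale. Nearest to PR5 were AT4G33150 (3.13-fold higher in csb3), the glycosyltransferase UGT87A2 (3.13-fold) and AT1G49050 (3.17-fold), all within 0.01. By its bound, PR3 was nearest to AT2G46150, CYP76C6 and the receptor-like kinase CRK23, which were at least 3.59-fold, 3.57-fold and 3.56-fold higher in csb3, among 569 named probe sets below 50 in Col-0 only. All of these neighbours lie well within the spread of 0.65, so their order carries no weight.

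The differences of PR1 and PR5 kept their direction and stayed past 2-fold under each of the 8 other floors and scalings tried, and the bound of PR3 did so except with a floor of 100. The floors could not move PR1 or PR5, whose signals were all above 100. PR1 ranged between 11.4-fold when the arrays were scaled on the reference genes TIP41 and SAND and 26.6-fold with scaling on the spike-in controls. PR5 ranged between 2.69-fold and 6.28-fold under the same scalings. PR3 followed the floor: it was at least 1.80-fold with a floor of 100, at least 3.60-fold with 50, at least 9-fold with 20 and 12.5-fold with none. TIP41 had 313.7 in csb3 and 296.1 in Col-0, and SAND had 279.8 in csb3 and 216.5 in Col-0. Both differed by less than the 3 PR genes did.

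**Figure D5:**
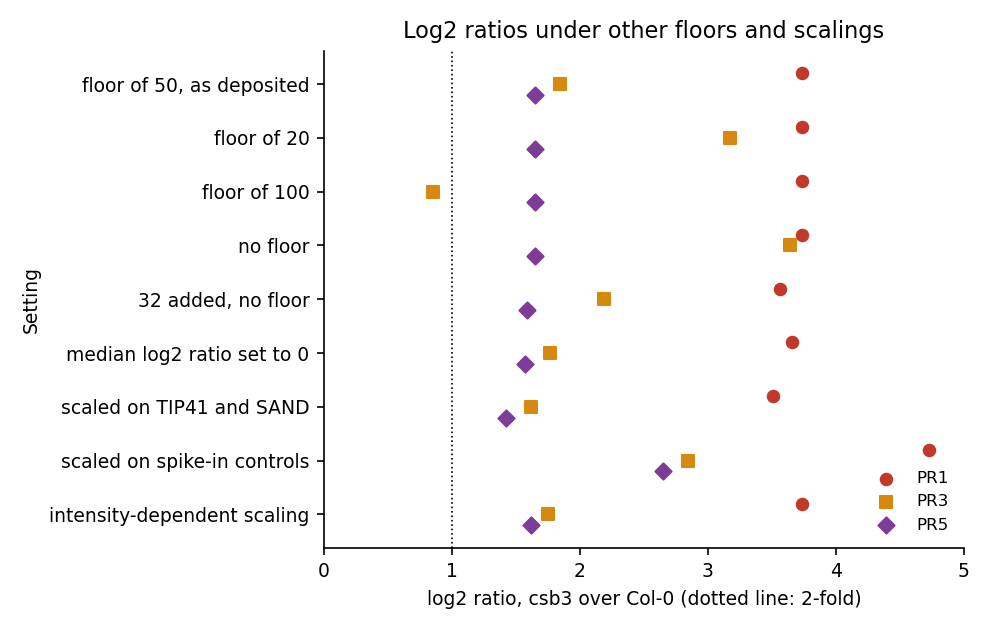
Log2 ratio of csb3 over Col-0 of PR1, PR3 and PR5 with a floor of 50 on the deposited signals (top) and under 8 other floors and scalings, with 2-fold as a dotted line. PR1 and PR5 stay right of the line throughout, and the bound of PR3 lies left of it with a floor of 100 (0.85).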

How the data were processed

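RNA from whole csb3 and Col-0 plants had been hybridised to Affymetrix ATH1 arrays, and 1 array per genotype was analysed. The deposited values are intensity signals that the authors computed with MAS5 (version not given in the submitters' processing notes) and scaled to a trimmed mean of 250. They are on a linear scale. The study's methods also describe SAM on triplicates, which 1 array per genotype does not allow.

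In the array annotation 13513 probe sets have 1 gene, 503 have more and 8794 are not listed. Symbols were updated through RefSeq (TAIR10.1), which matched 13433 of those kept. Gene codes from the study's list of changed genes named 219 unlisted probe sets, and 3 with conflicting names were left out. Its fold changes were not used. No coordinates are given, since the build behind the array was not stated.

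Signals below 50 were set to 50, and log2 ratios were computed with Python 3.11.15, NumPy 2.4.6 and pandas 2.3.3 and drawn with matplotlib 3.10.9. Lowess came from statsmodels 0.14.6. A gene was counted as higher or lower at 2-fold. The calling rule and the spread were tested on simulated data. The brightest probe set stood for a gene that has more than 1. The number of arrays limits the precision.

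Named genes were PR1, PR3 and PR5, up to 6 members of each of their families at 2-fold, up to 4 of each other list, the 3 nearest in log2 ratio to each, and reference genes. Family members short of 2-fold, the ER genes, PR1 regulators and root markers beyond 4, and neighbouring genes were named after their values had been seen. The members and lists were chosen with earlier results of these data known.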

Additional observations from a re-analysis of the deposited data

How the results depend on the processing

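No paired analysis was possible because csb3 and Col-0 have 1 array each, and no replicate could be left out. With a floor of 20 in place of 50, the log2 ratio of PR3 was at least 3.17 and 323 probe sets were up at 4-fold. With a floor of 100 the ratio of PR3 was at least 0.85, a bound short of 2-fold, and 119 were up at 4-fold. With no floor the ratio of PR3 was 3.64, and 2696 probe sets were up at 2-fold and 972 at 4-fold. Scaling on TIP41 and SAND lowers log2 ratios by 0.23 where the csb3 signal stays above the floor. It left 660 probe sets up at 2-fold (2.89% of all). Among them were 4 of the 21 named thaumatin-like genes and 2 of the 4 named glucanases. Scaling on the spike-in controls, a shift of -0.998, gave log2 ratios of 4.73 for PR1 and 2.65 for PR5, and at least 2.85 for PR3. With it 7858 probe sets were up at 2-fold (34.4% of all) and 1038 at 4-fold. Of the 16 named chitinases and the 21 named thaumatin-like genes, 9 each were then up in place of 5 each. With a floor of 100, 3 of each were up, against 3.07% of all probe sets. No value reversed, a direction that the size of these shifts could hardly change for genes chosen as changed. Scaling on ACT2 was not run because no probe set is named for it. Signal over background limits PR3 most, and most relatives of PR1 lie below 50.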

Other observations

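The dim relatives of PR1 were also read with no floor, where differences between signals near 0 count in full. Of the CAP genes, 4 were then 2-fold or more higher and 7 lower in csb3, against 1 and 2 with the floor of 50, and 11.8% of all probe sets were then 2-fold or more higher and 15.6% lower. In RefSeq gene order AT3G12510 follows PR3, and it had 45.2 in csb3 and 3.7 in Col-0, below 50 on both arrays. Of the 12 protein-coding genes within 2 places of PR1, PR3 and PR5, only AT3G12510 and AT1G75050 have a named probe set.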
